A study of Mus musculus with 8 samples.

Results

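The effect of EZM8266 given alone was examined in ID8-OR cells by comparing the 2 libraries of cells kept with EZM8266 with the 2 libraries of cells kept with DMSO, the solvent control. These are 4 of the 8 libraries of the study, and the other 4 come from cells kept with olaparib or with olaparib and EZM8266 together. The members are all rows of the count table that passed a filter on low counts, 6379 of 54146, and no measured difference was used to choose them. ID8 is a mouse ovarian cancer line grown in culture, and ID8-OR is the form of it that the labels call olaparib-resistant. All 4 groups are of this resistant form, so no comparison with the olaparib-sensitive parent cells can be made here, and every group was treated for 72 hours.

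EHMT1 and EHMT2, also known as GLP and G9a, are histone methyltransferases that act as a complex and place mono- and dimethylation on lysine 9 of histone H3, a mark of silent genes. Inhibitors of the pair are known to reduce this mark and to allow transcription of some genes held silent by it, among them germline genes, endogenous retroviruses and, through the sensing of their double-stranded RNA, interferon-response genes. EZM8266 is named in the series as an inhibitor of both enzymes. Olaparib inhibits the PARP enzymes, and cells that can repair DNA by homologous recombination tolerate it better.

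The counting of these libraries decides how each value must be read. Fragments were counted on the strand given as that of the gene, whereas the library kit marks the transcript so that its first read falls on the other strand. Rows that share at least 50 bases of exon with a gene of the other strand were 15.2% of all rows and took up 83.8% to 88.6% of each library. Such a row is named here first by that other gene, followed in parentheses by its own symbol, and values of a gene's own row are given only where stated. A row of this kind sees only part of the opposite gene, and where in the row its fragments fell was not measured. The libraries held 19743299 to 30329847 fragments, of which 4.54% to 5.40% were assigned, giving 973382 to 1680974 counts per library, so a count of 3, taken as the floor, stands for 1.78 to 3.08 CPM, counts scaled to a common library total.

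Several features of the libraries run beside the comparison. Sample numbers in the labels are 41 and 42 for the DMSO libraries and 33 and 34 for those with EZM8266, and the same split, 43 and 44 against 35 and 36, separates olaparib from the combination, so a block of numbers and EZM8266 cannot be told apart. The labels do not say whether the replicates are separate cultures, and p-values then measure only the spread between libraries, which may be technical. The Gm10800 row, which lies over satellite repeats, stood at 22501 CPM in DMSO replicate 1 and 18644 CPM in olaparib replicate 2 against 706 to 4394 CPM in the other 6. The share of fragments on the wrong strand, taken from the Rmrp row relative to the sum of the Rmrp and Ccdc107 rows, was 1.24% and 1.68% with DMSO and 1.55% and 1.04% with EZM8266. For combination replicate 2 the label gives the compound as EZM8267, and its title was followed. Markers of the cells could be read only in part. Of 10 markers of mesothelium listed, 3 had a row on the other strand. The strand of the keratin gene Krt8 (row Gm36026) held 196 to 362 counts in the 8 libraries. Those of Krt7 (row Gm671) and Pax8 (row Gm13415) held at most 2. The other markers have only their own rows, among them Wt1 with 13 to 58 counts, Krt19 with 14 to 53 and Msln with 2 to 9. Such rows do not measure the mRNA, so these markers could not settle the identity of the cells.

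EZM8266 alone changed few of the rows that could be tested. At a Benjamini-Hochberg adjusted p under 0.05 in edgeR's quasi-likelihood test, 13 rows were called, 12 higher and 1 lower, which is 0.204% of the rows tested, with 0.188% called higher. The strands of the serpin gene Serpinb9b and the clotting factor gene F13a1 rose, and the strand of the matrix gene Thbs1 fell. The growth factor Gdnf's own row, which does not measure Gdnf mRNA, also rose. Unadjusted p was under 0.05 in 365 rows, or 5.72%, of which 207 were higher and 158 lower. The EZM8266 and DMSO libraries did not overlap in 2031 rows, or 31.8%, so a lack of overlap alone says little with 2 libraries a group. The median log2 fold change over all rows was -0.024 and the median standard error (SE) 0.39, falling to 0.15 among 1329 rows whose mean count was at least 100. A change of 2-fold could therefore be missed in most rows at this depth. In RNA of whole cultures, fewer cells with a transcript and less of it per cell cannot be told apart.

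**Figure D1:**
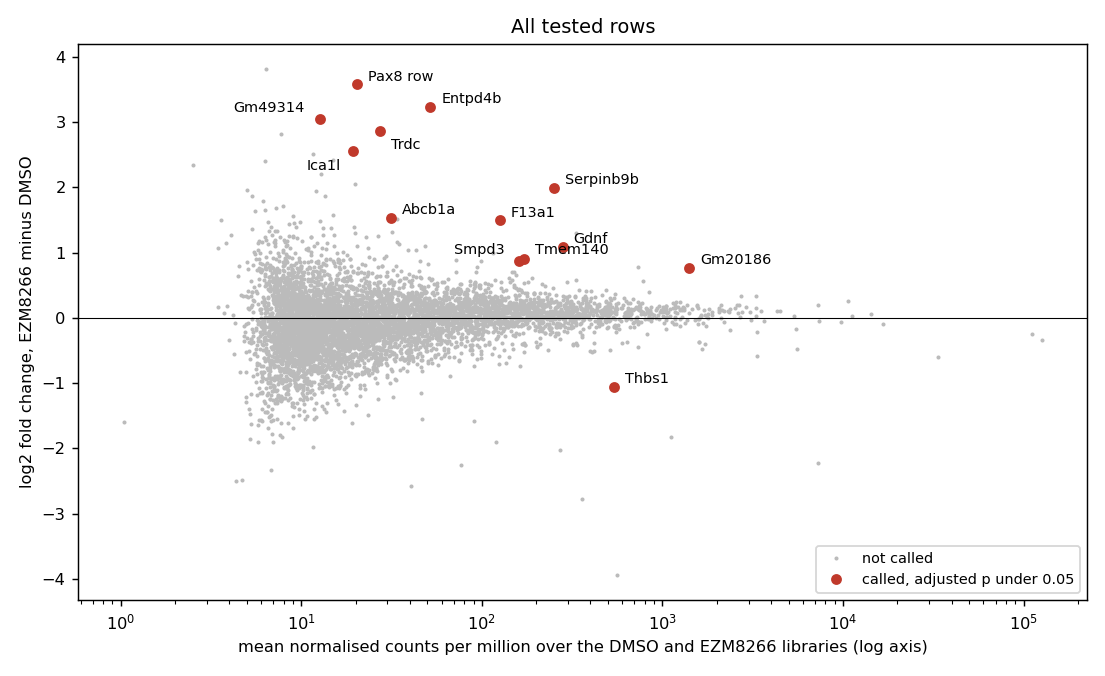
Each point is 1 of the 6379 rows, with its mean level over the DMSO and EZM8266 libraries in CPM (log axis) against its log2 fold change, EZM8266 minus DMSO. The 13 called rows are red and are named by their opposite-strand gene, the Pax8 row by itself, and 12 of them lie above 0.

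Some rows share protein-coding bases with the opposite gene, and these bases can be shown. They are a small part of 2 of the 3 rows, as exons of the gene cover 15.5% of the row opposite Serpinb9b and 13.5% of that opposite Abcb1a. The stretches below are the coding parts of the overlap for Serpinb9b, which rose most firmly, for Thbs1, which fell, and for Abcb1a. They are read 5′ to 3′ on the strand of the gene in mm10 coordinates, from GENCODE M21 transcripts, and are all in lower case because the whole of each stretch is the overlap.
Serpinb9b, chr13:33032916-33033053 (+): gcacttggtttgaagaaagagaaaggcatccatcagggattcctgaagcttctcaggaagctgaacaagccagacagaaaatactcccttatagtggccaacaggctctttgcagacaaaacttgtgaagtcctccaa
Serpinb9b, chr13:33033527-33033644 (+): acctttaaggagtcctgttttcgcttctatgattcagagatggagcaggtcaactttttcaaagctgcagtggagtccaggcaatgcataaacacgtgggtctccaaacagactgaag
Thbs1, chr2:118123451-118123539 (+): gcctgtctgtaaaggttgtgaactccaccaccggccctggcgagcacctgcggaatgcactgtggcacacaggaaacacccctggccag
Thbs1, chr2:118123916-118124013 (+): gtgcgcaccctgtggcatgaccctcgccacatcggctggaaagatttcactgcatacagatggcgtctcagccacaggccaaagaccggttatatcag
Abcb1a, chr5:8732292-8732392 (+): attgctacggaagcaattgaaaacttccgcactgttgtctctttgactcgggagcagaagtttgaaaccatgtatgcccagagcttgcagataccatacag
Abcb1a, chr5:8733599-8733739 (+): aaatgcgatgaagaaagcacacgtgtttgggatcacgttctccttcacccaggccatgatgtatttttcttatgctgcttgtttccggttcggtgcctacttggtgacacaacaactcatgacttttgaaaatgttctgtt

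Serpinb9b, which encodes an intracellular serine protease inhibitor of the clade B serpins, gave the smallest p of all rows. Its strand (row Gm36099, chromosome 13, 33031202 to 33034560) held 113 and 149 counts with DMSO and 478 and 443 with EZM8266, that is 111 and 92.0 CPM against 362 and 441 CPM. Both EZM8266 libraries lay far above both DMSO libraries. The log2 fold change was 1.99 ± 0.16 (SE) with an adjusted p of 7.44e-05, and group means were 101 ± 13.2 CPM and 401 ± 55.9 CPM (SD, n = 2). The row lies inside the gene and shares 278 bases with its exons, of which 256 are coding, which is 15.5% of the row's exons and 8.3% of the gene's. The row of Serpinb9b itself held at most 5 counts in any library.

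F13a1 encodes the A subunit of coagulation factor XIII, the transglutaminase that crosslinks fibrin. The F13a1 strand (row Gm30489, chromosome 13, 36963239 to 36973329) held 63 and 112 counts with DMSO and 230 and 198 with EZM8266, or 61.7 and 69.2 CPM against 174 and 197 CPM. The groups were clearly apart, with a log2 fold change of 1.49 ± 0.16 and an adjusted p of 0.000637. Only 74 bases of the row, 4.2% of its exons, overlap exons of F13a1, and 14 of those are coding, the rest of the row lying over introns of the gene. F13a1 and Serpinb9b were called in all 19 other settings tried, among them each fit without 1 library. The list of serpins and coagulation genes held 36 genes, of which 3 could be read through 4 opposite rows. Those 4 rows were all above 0 with a median log2 fold change of 1.26, against 58.0% of the 3554 rows of this kind above 0 and a median of 0.050. As 2 of the 4 are the called rows of Serpinb9b and F13a1 themselves, this comparison cannot speak for the list. The remaining 2 rows are both opposite Serpinb6a, another clade B serpin, with 1.04 ± 0.53 (row Ripk1) and 0.18 ± 0.16 (row 1110046J04Rik), neither called.

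The 250 bases before the RefSeq starts of these 2 genes are shown because their rows are among the 3 with the smallest p and each lies opposite 1 gene, and CpG dinucleotides are written as CG in capitals. Coordinates are those of GRCm38.p6, the RefSeq table's build, and the sequences run 5′ to 3′ on the strand of the gene.
Serpinb9b, chr13:33027164-33027413 (+): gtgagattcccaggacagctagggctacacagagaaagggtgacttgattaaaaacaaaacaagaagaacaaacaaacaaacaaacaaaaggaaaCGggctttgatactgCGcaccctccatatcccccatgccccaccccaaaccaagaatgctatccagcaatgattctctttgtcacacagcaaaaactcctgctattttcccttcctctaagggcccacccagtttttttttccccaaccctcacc
F13a1, chr13:37050245-37050494 (-): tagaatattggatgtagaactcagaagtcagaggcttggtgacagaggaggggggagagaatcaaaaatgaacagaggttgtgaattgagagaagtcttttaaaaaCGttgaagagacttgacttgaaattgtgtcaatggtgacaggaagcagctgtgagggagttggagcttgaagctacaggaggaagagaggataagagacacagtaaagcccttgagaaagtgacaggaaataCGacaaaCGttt
Serpinb9b has 2 CpG in this window and the F13a1 start shown has 3, where the median of 32851 promoter windows of this length is 6, and 29.0% and 37.8% of windows have no more than these genes. Entpd4b, opposite the other row of those 3 together with Loxl2, has 21. Of 12 genes looked up, 8 had an entry, and the others spread over the whole range, from 0 CpG before an Abcb1a start to 45 before Ica1l. That RefSeq start of Abcb1a lies 92986 bases from the nearest GENCODE start of the gene.

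Gdnf encodes glial cell line-derived neurotrophic factor, a secreted ligand that signals through GFRA1 and the RET receptor. Its row (chromosome 15, 7810846 to 7837575) has no gene annotated on the other strand over it, and none ends within 5000 bases of it, so its counts cannot be read through another gene. On this strand only misplaced fragments of Gdnf mRNA are counted, so the row does not measure the level of that mRNA. It held 173 and 308 counts with DMSO and 476 and 408 with EZM8266, or 169 and 190 CPM against 360 and 406 CPM. The row rose by 1.09 ± 0.13 on the log2 scale, with an adjusted p of 0.00208. In the list of neurotrophic factors, the row of Bdnf, which lies opposite Gm45346, held 5 and 8 counts with DMSO and 21 and 23 with EZM8266, a log2 fold change of 1.94 ± 0.49 with an adjusted p of 0.278. Of the 20 genes listed 3 had a tested row of their own, and all 3 were above 0, with a median of 1.09, where 47.2% of all rows were above 0. This median is the value of the called Gdnf row itself. Such own rows do not measure the mRNA of their genes, so they cannot speak for the list. Read through opposite rows the list gave 2 rows with a median of -0.22, 1 of them above 0, and the strand of Nrn1 and Lyrm4 (row Fars2) gave -0.49 ± 0.12 with an adjusted p of 0.228.

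Thbs1 encodes thrombospondin 1, a secreted glycoprotein that binds matrix and cell surfaces, restrains angiogenesis and activates latent TGF-beta. Its strand was read in a short noncoding row (Gm29233, chromosome 2, 118123451 to 118124047) of which 74.0% lies over exons of Thbs1, 187 of the 208 shared bases being coding. The row held 759 and 1147 counts with DMSO and 401 and 400 with EZM8266, or 743 and 708 CPM against 303 and 398 CPM. It was the only row called lower, with a log2 fold change of -1.05 ± 0.14 and an adjusted p of 0.00487. The row of Thbs1 itself, which holds the small share of fragments on the wrong strand, went the same way, with 62 and 129 counts against 41 and 16 and a log2 fold change of -1.55 ± 0.30, and it was not called (adjusted p 0.0715). The Gdnf and Thbs1 calls were lost when only the DMSO and EZM8266 libraries were fitted and when DMSO replicate 1 and olaparib replicate 2 were left out together, with adjusted p up to 0.0926 and 0.113.

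Abcb1a encodes a P-glycoprotein, a drug efflux pump of the plasma membrane that is known to carry olaparib among many substrates. The Abcb1a strand (row Gm42686, chromosome 5, 8731661 to 8735768) held 16 and 27 counts with DMSO and 66 and 44 with EZM8266, or 15.7 and 16.7 CPM against 49.9 and 43.8 CPM. It rose by 1.53 ± 0.27 on the log2 scale with an adjusted p of 0.0444, the largest among the calls. The 553 bases that row Gm42686 shares with exons of Abcb1a, 242 of them coding, are 13.5% of the row's exons. The row of Abcb1a itself held at most 3 counts. Leaving out any 1 of the 8 libraries lost this call, with adjusted p of 0.0618 to 0.464, as did DESeq2 with 0.119. Its near relative Abcb1b, read through Gm5106, held 39 and 42 counts with DMSO and 40 and 33 with EZM8266, a log2 fold change of 0.00. Group means of that row were 32.1 ± 8.67 CPM with DMSO and 31.5 ± 1.81 CPM with EZM8266 (SD). The other 3 rows opposite an ABC transporter lay between -0.02 and 0.25, and none was called.

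Smpd3 encodes neutral sphingomyelinase 2, which cleaves sphingomyelin to ceramide. The row opposite it is that of Prmt7, an arginine methyltransferase (chromosome 8, 106210936 to 106252794), and the 2 genes meet tail to tail with only 247 bases, 4.0% of the row's exons, shared, all of them untranslated sequence of Smpd3. Counts were 121 and 176 with DMSO and 280 and 204 with EZM8266, or 118 and 109 CPM against 212 and 203 CPM. The row rose by 0.87 ± 0.15 on the log2 scale, with an adjusted p of 0.0351, while the row of Smpd3 itself, which is read as Prmt7, gave -0.08 ± 0.28. Without any 1 of the 8 libraries the Smpd3 call was lost, with adjusted p of 0.0562 to 0.495. Of the 7 other tested rows within 100000 bases of it, 6 were above 0, and 1, Gm10629, had an unadjusted p under 0.05, with 1.57 ± 0.70.

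Tmem140, a membrane protein gene of the interferon response, shares 2168 bases of exon, 555 of them coding, with the row opposite it, Cyren (chromosome 6, 34871771 to 34878060), a regulator of end joining. That row held 119 and 199 counts with DMSO and 261 and 253 with EZM8266, or 117 and 123 CPM against 197 and 252 CPM. It rose by 0.90 ± 0.15 on the log2 scale, with an adjusted p of 0.0351. The row of Tmem140 itself, which is read as Cyren, held 142 and 218 counts against 182 and 164, a log2 fold change of 0.13 ± 0.15. Of the 8 fits without 1 library, 2 kept the Tmem140 call (those without olaparib replicate 2 and without EZM8266 replicate 1), and the replicate block ended it with an adjusted p of 0.0637.

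Rows that were nearly silent with DMSO gave the largest fold changes among the calls. Trdc is the constant region gene of the T cell receptor delta chain. The Trdc strand (row Gm43434, chromosome 14, 54128298 to 54146287), which shares 96 bases with exons of the gene, held 7 and 10 counts with DMSO and 48 and 60 with EZM8266, or 6.86 and 6.18 CPM against 36.3 and 59.7 CPM. The log2 fold change was 2.86 ± 0.38, with an adjusted p of 0.0051. Of the other T and NK cell markers listed, Cd3e alone could be read on its strand, through a row (Gm48719) at 0 in all 8 libraries. A second row opposite Trdc (Trdv5) held at most 2 counts in any library. The remaining markers have only their own rows, which do not measure their mRNA here, so the part of T cells in this result was not tested. The Trdc call was lost without DMSO replicate 2, with an adjusted p of 0.121.

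Pax8 is a transcription factor of the kidney, thyroid and Müllerian epithelia. Its row (chromosome 2, 24420560 to 24475599) lies head to head with the noncoding gene Gm13415, with 367 shared bases, and counts transcription from the strand opposite to Pax8. It held 3 and 5 counts with DMSO, at or near the floor, and 38 and 47 with EZM8266, or 2.94 and 3.09 CPM against 28.8 and 46.7 CPM. The log2 fold change of 3.58 ± 0.52 had an adjusted p of 0.0109. The row of Gm13415, on which fragments of Pax8 itself would be counted, held 0 and 2 counts with DMSO and 1 and 0 with EZM8266, so that Pax8 mRNA was not detectable there at this depth. The Pax8 row was no longer called on leaving out either DMSO library or EZM8266 replicate 2, with adjusted p of 0.0884, 0.15 and 0.089.

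Ica1l, a relative of the islet cell autoantigen gene Ica1, overlaps the row of Fam117b (chromosome 1, 59913006 to 59985346) tail to tail over 473 bases, only 6.5% of the row's exons. That row held 4 and 11 counts with DMSO and 41 and 36 with EZM8266, or 3.92 and 6.79 CPM against 31.0 and 35.8 CPM, a log2 fold change of 2.55 ± 0.41 with an adjusted p of 0.0254. The row of Ica1l itself, which is read as Fam117b by the same rule, was well covered, with 280 and 475 counts against 390 and 384, and gave 0.25 ± 0.14. The unclassified row Gm49314 (chromosome 15, 38275400 to 38276441), with no gene on the other strand, held 3 and 4 counts against 30 and 23, a log2 fold change of 3.05 ± 0.52 with an adjusted p of 0.0351. The Ica1l call was lost on leaving out either DMSO library or EZM8266 replicate 2 (adjusted p 0.21, 0.138 and 0.115), and that of Gm49314 also without olaparib replicate 1 or EZM8266 replicate 1 (0.056 and 0.0666). The noncoding Gm20186 strand (row Gm26809, chromosome 6, 18844220 to 18847360) was the most abundant of the 13, with 1113 and 1612 counts against 2099 and 1974, and rose least, by 0.77 ± 0.13 on the log2 scale with an adjusted p of 0.0388, a call that DMSO replicates 1 and 2, olaparib replicate 1, EZM8266 replicate 2 and both combination replicates each decided, with adjusted p up to 0.464 in their absence.

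The row Gm27177 (chromosome 14, 69582164 to 69683286) lies opposite both Entpd4b, a Golgi nucleotidase, and Loxl2, a lysyl oxidase that crosslinks collagen. It shares 1700 bases with exons of Entpd4b and 301 with those of Loxl2, so its counts cannot be given to either. Counts were 6 and 21 with DMSO and 149 and 76 with EZM8266, or 5.88 and 13 CPM against 113 and 75.6 CPM. The log2 fold change of 3.23 ± 0.33 had an adjusted p of 0.000637, and the row was called in all 19 other settings. Its levels in the other groups differ from those of the other 12 rows: it held 26 and 25 counts with olaparib and 20 and 24 with the combination. Entpd4b has a near-identical neighbour, Entpd4, so reads of the pair cannot be assigned with certainty, and the row of Entpd4b was at 0 in all 8 libraries. The row of Loxl2 itself gave 0.13 ± 0.61.

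**Figure D2:**
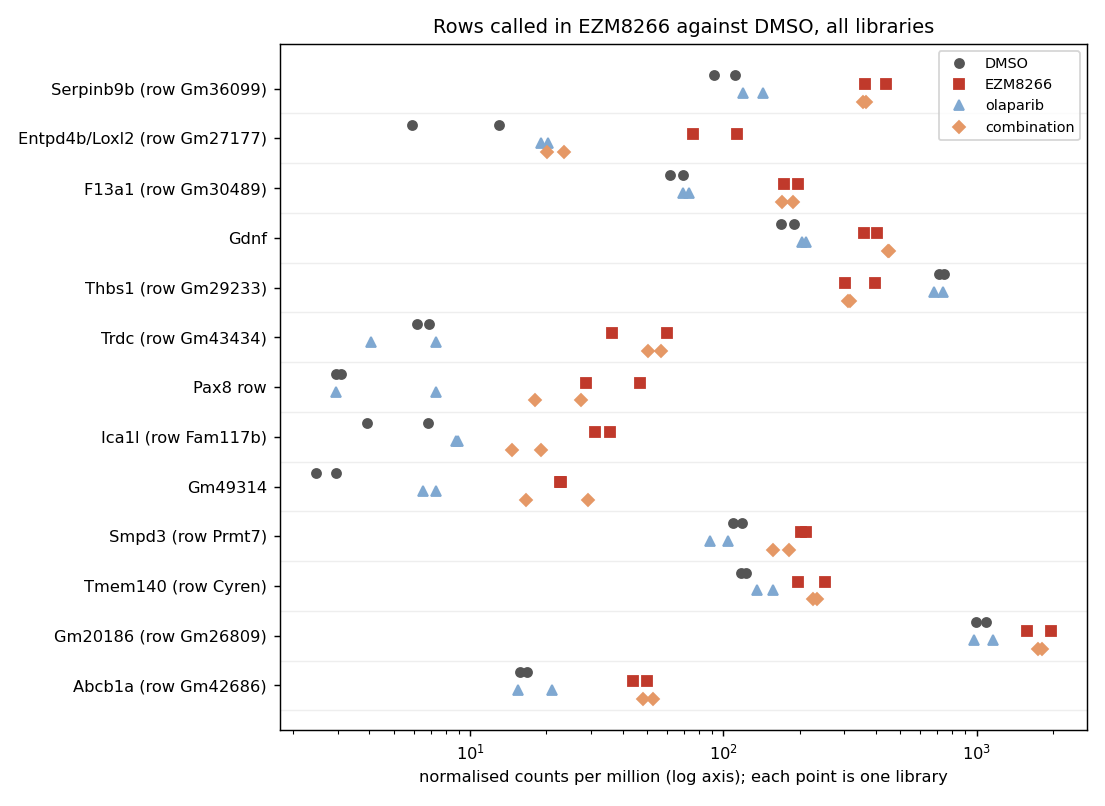
Level of each called row in every library in normalised CPM (log axis), with 2 points per group: DMSO grey circles, EZM8266 red squares, olaparib blue triangles, combination orange diamonds. In all 13 rows the EZM8266 points lie apart from the DMSO points, and in 12 the combination points lie apart from the olaparib points, the exception being row Gm27177.

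The combination and olaparib libraries contain EZM8266 against its absence in 4 libraries that the comparison above did not use, although all 8 share 1 estimate of the spread. There 6 rows were called, 0.0941% of those tested, and 243, or 3.81%, had an unadjusted p under 0.05. All 13 rows called for EZM8266 alone had the same direction, 12 had an unadjusted p under 0.05 and 5 were called again: Serpinb9b, F13a1, Gdnf, Thbs1 and Trdc. The libraries did not overlap in 12 of the 13, where 32% of all rows did not. The log2 fold changes in the presence of olaparib were 1.45 ± 0.15 for Serpinb9b, 1.34 ± 0.15 for F13a1, 1.10 ± 0.13 for Gdnf, -1.17 ± 0.14 for Thbs1 and 3.19 ± 0.39 for Trdc. For Abcb1a it was 1.47 ± 0.27, close to the 1.53 without olaparib, with 21 and 26 counts rising to 48 and 54, though not called there (adjusted p 0.0849). The sixth row called is opposite Nrn1 and Lyrm4 (row Fars2), with 604 and 987 counts with DMSO, 574 and 423 with EZM8266, and -0.49 ± 0.12 without olaparib against -0.73 ± 0.12 with it.

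**Figure D3:**
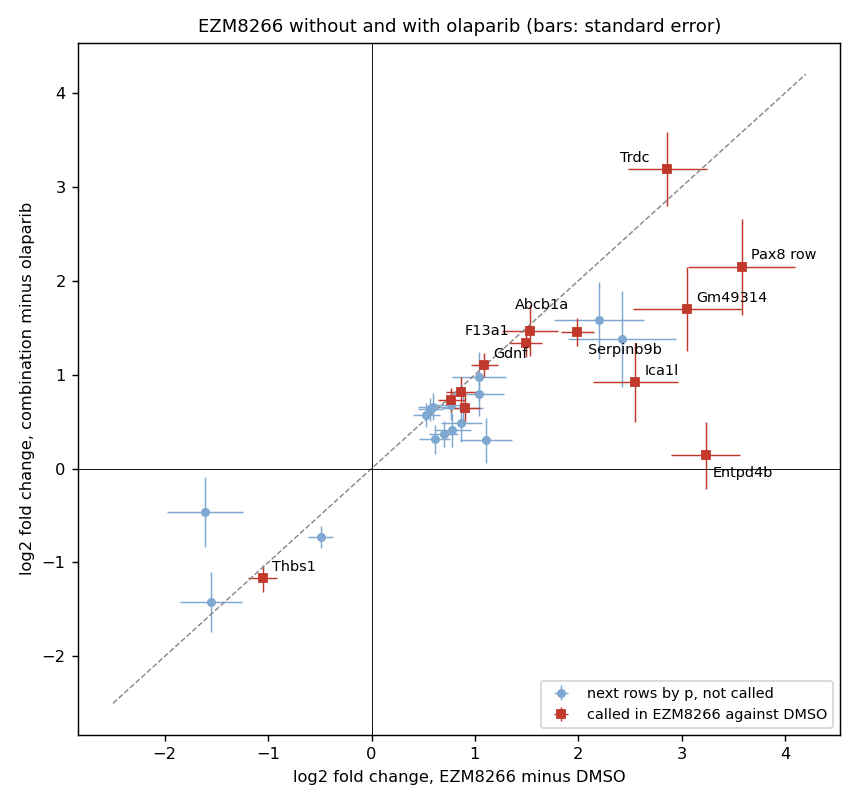
Log2 fold change of EZM8266 against DMSO (horizontal) and of the combination against olaparib (vertical) for the 13 called rows (red squares) and the next 17 rows in p order that pass the naming rule (blue circles), with bars for the standard error and a dashed line of equality. All 30 points lie in the quadrants of equal sign, and Entpd4b (row Gm27177) lies nearest to 0 on the vertical axis.

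The difference between the effects of EZM8266 without and with olaparib was tested as the interaction. No row passed in edgeR, where the smallest adjusted p was 0.196, 103 rows or 1.61% had an unadjusted p under 0.05, and 3 of the 13 called rows were among them. DESeq2 called 1 row. The smallest p was that of Gm27177, whose effect was smaller with olaparib (interaction -3.09 ± 0.49 on the log2 scale). This interaction passed in DESeq2 with an adjusted p of 0.0145. In edgeR it passed with no scaling (0.0104), no filter (7.07e-06), a filter at 1 CPM (0.0142) or the leakage share as a covariate (0.000677). It did not pass with RLE scaling, the replicate block, or satellite and mitochondrial rows left out. Nor did it pass without DMSO replicate 1 and olaparib replicate 2 together, or in most fits without 1 library. In all it passed in 7 of 18 other settings, and ran from -3.85 to -2.68 on the log2 scale over them. Of the 13 effects, 10 were smaller in size with olaparib, and only for Gm27177, Serpinb9b (interaction -0.54 ± 0.22) and Ica1l (-1.63 ± 0.60) did the unadjusted p fall under 0.05. The 13 rows were chosen by their effect without olaparib, so smaller effects with it can come from that choice alone. The interaction contains the same effect, so 3 of 13 cannot be set against the 1.61% of all rows.

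The next 17 rows in order of p that pass the naming rule, none of them called, lay outside the threshold. Rows known only by a Gm number or Rik name were passed over, among them the first row past the threshold, 2210010C04Rik, with 1 and 1 counts against 16 and 12 and an adjusted p of 0.0642. They comprise 14 higher and 3 lower rows, and 15 had an unadjusted p under 0.05 in the combination against olaparib as well. Pim1, a kinase gene, gave 108 and 115 CPM on its strand with DMSO (row Gm26885) and 174 and 188 with EZM8266, 0.70 ± 0.14 with an adjusted p of 0.0821. The strand of Mmp24, a membrane-type matrix metalloproteinase (row BC029722), gave 4.90 and 4.32 CPM against 22.7 and 19.9, a log2 fold change of 2.20 ± 0.44 with an adjusted p of 0.0929. H1f0, a linker histone gene of slowly dividing cells (row Gm49544), stood at 586 and 497 CPM against 760 and 1090, or 0.77 ± 0.17. The row of Psat1, an enzyme of serine synthesis, held 25 and 53 counts against 13 and 9, a difference of -1.61 ± 0.37 that was -0.46 ± 0.37 with olaparib. The Psat1 row has no exon opposite it and, as the gene's own row, does not measure Psat1 mRNA.

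Type I interferon acts through its receptor to switch on genes that carry an interferon-stimulated response element. Of 48 such genes in the list, 11 could be read on their strand, through 11 rows. All 11 were above 0, where 58.0% of the 3554 rows with an opposite exon were. Of the 11, 1 was called (Tmem140) and 7 had an unadjusted p under 0.05, where 4.76% of those 3554 were higher at that level. The median log2 fold change of the 11 was 0.57, and in the combination against olaparib it was 0.54, with 8 of 11 under an unadjusted p of 0.05. Rnf213, an E3 ubiquitin ligase (row A930037H05Rik), held 657 and 1007 counts with DMSO and 1245 and 939 with EZM8266, 0.57 ± 0.12 with an adjusted p of 0.103. Sp140, a chromatin reader of leukocytes (row Gm17017), held 21 and 34 counts against 58 and 50, 1.16 ± 0.29. Usp18, the protease that removes ISG15 and damps the receptor (row Gm44148), held 1 and 9 counts against 11 and 17, 1.71 ± 0.64. The transcription factor Irf1 (row Gm17334) gave 0.38 ± 0.13 and the chemokine Cxcl10 (row Art3) 0.54 ± 0.21. The row opposite the RNA-dependent kinase Eif2ak2 and Sult6b1 (Gm26637) gave 0.02 ± 0.16. Read by their own rows, 11 interferon genes had a median of 0.14 and 1 had an unadjusted p under 0.05. Without the rows of Rnf213, Sp140, Tmem140 and Cxcl10, which earlier results of these data had already shown, the 7 rows left were all above 0. Their median was 0.38, and 3 had an unadjusted p under 0.05. The list itself was chosen with earlier results of these data known, so these 7 rows are no independent check of it.

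The list was then set beside promoter sequence. The letters GAAANNGAAA, a core of the response element, were searched on both strands in the 250 bases before each RefSeq start. They occur in 2.98% of windows and 3.46% of 27025 genes. Of the 11 interferon genes read, 9 had a window and 2, Tmem140 and Cxcl10, had a match. Both matches are shown with 10 bases on each side, the match in capitals, in GRCm38.p6.
Tmem140, chr6:34863073-34863102 (+): gttaaaaaacGAAAGTGAAAtcagctgaga
Cxcl10, chr5:92349083-92349112 (-): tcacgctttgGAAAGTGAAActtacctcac
The match begins 63 bases before the start of Tmem140 and 213 bases before that of Cxcl10, and both have the same letters in the match. A match is a description of sequence, and the 7 genes without one lack only these letters in this window.

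No row was called in the lists of antigen presentation, nucleic acid sensors, or chemokines and cytokines. Antigen presentation by MHC class I was read through 4 rows, all above 0 with none at an unadjusted p under 0.05 and a median of 0.27. Among all rows with an opposite exon 58.0% were above 0. The best covered of them, the peptide-loading factor Tapbp (row Gm19412), held 499 and 722 counts with DMSO and 704 and 533 with EZM8266, 0.19 ± 0.11. Sensors of nucleic acids were read through 7 rows, 5 above 0, with a median of 0.02, among them the DNA sensor Cgas (row Gm8093) with 0.00 ± 0.42. Chemokines and cytokines gave 5 rows with a median of 0.12, and Cxcl10 alone had an unadjusted p under 0.05.

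The genes of the targeted pathway were covered thinly. The row of Ehmt2 held 16 and 30 counts with DMSO and 8 and 7 with EZM8266, -1.40 ± 0.48 with an adjusted p of 0.739, and that of Ehmt1 held 7 and 5 against 10 and 1 and did not pass the filter. These are rows on the gene's own strand, where only misplaced fragments of its mRNA are counted, so they do not measure the level of either mRNA. Of 31 genes for the writing, reading and removal of histone H3 lysine 9 methylation, 8 could be read through 10 opposite rows, with 6 above 0, a median of 0.03 and none at an unadjusted p under 0.05. The methyltransferase Suv39h1 (row Gm14820) held 340 and 559 counts with DMSO and 469 and 349 with EZM8266, 0.05 ± 0.12, and the demethylase Kdm3b (row Gm26538) gave -0.31 ± 0.17. Of 30 germline genes known to be silenced by this mark none could be read on its strand, and only Sycp3 had a tested row of its own, with 0.34 ± 0.24.

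Homologous recombination and fork protection, the processes that bear on tolerance of PARP inhibition, were read for 10 of 40 genes through 12 rows. Of these, 11 were above 0 with a median of 0.16, none was called, and 2 had an unadjusted p under 0.05, both higher. Among all 3554 rows with an opposite exon 58.0% were above 0, the median was 0.050, and 4.76% were higher at that p. The strand of the Fanconi anaemia gene Fanca and of Vps9d1 (row Zfp276) held 56 and 113 counts with DMSO and 114 and 94 with EZM8266. Its log2 fold change was 0.51 ± 0.19, and its counts cannot be given to Fanca alone. With olaparib the difference for this row was 0.01 ± 0.19. Read by their own rows, the 16 tested genes of this list had a median of -0.03. End joining and break signalling gave 8 rows with 5 above 0, a median of 0.12 and no unadjusted p under 0.05, the DNA ligase Lig3 (row Rffl) giving 0.12 ± 0.12 with 456 and 626 counts against 592 and 457.

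Matrix and mesenchymal genes went in both directions. Of 13 rows, 1 was called higher, Gm27177 opposite Entpd4b and Loxl2, and 1 lower, Thbs1, while 4 in each direction had an unadjusted p under 0.05. Among all 3554 rows with an opposite exon 10 were called higher and 1 lower, and 4.76% were higher and 1.77% lower at that unadjusted p. The counts of Gm27177 cannot be given to Loxl2, the member of this list. Fibronectin, Fn1 (row Apol7d), held 716 and 1185 counts with DMSO and 693 and 594 with EZM8266, -0.36 ± 0.12, and the collagen hydroxylase P3h2 (row Gm4524) gave -0.39 ± 0.12. Timp3, an inhibitor of metalloproteinases (row Syn3), held 15 and 45 counts against 63 and 50, 1.14 ± 0.30, and the basement membrane protein nidogen, Nid1 (row Gm48682), gave 1.24 ± 0.35. In the combination against olaparib these were -0.35 ± 0.12 for Fn1, -0.40 ± 0.13 for P3h2, 0.35 ± 0.31 for Timp3 and 1.07 ± 0.33 for Nid1. None of these 4 passed adjustment.

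Adhesion and junction genes of epithelia gave 9 rows, 7 above 0, with a median of 0.29. Of all rows with an opposite exon 58.0% were above 0. In the combination against olaparib 4 of the 9 were above 0, with a median of -0.08. The strand of Lsr, a component of tricellular junctions (row Gm4673), held 247 and 468 counts with DMSO and 491 and 431 with EZM8266, 0.59 ± 0.14, and that of Heg1 and Muc13 (row Gm15657) gave 0.53 ± 0.13. Ncam1, a neural and mesenchymal adhesion molecule (row Gm11149), held 2050 and 3109 counts against 1822 and 1598, -0.40 ± 0.11, with -0.44 ± 0.11 in the combination against olaparib. Adjusted p was 0.188 for Lsr, 0.241 for Heg1 and Muc13 and 0.424 for Ncam1, so none was called. Krt8 (row Gm36026) gave 0.29 ± 0.14, and -0.08 ± 0.14 with olaparib.

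Genes of the cell cycle, p53 targets and genes of the integrated stress response showed no called row in either reading. Cell cycle genes were read through 11 rows, 8 above 0, with a median of 0.07, where 58.0% of rows with an opposite exon were above 0. Cyclin D1, Ccnd1 (row LTO1), held 2570 and 3740 counts with DMSO and 3855 and 3185 with EZM8266, 0.33 ± 0.11 with an adjusted p of 0.721, and its partner kinase Cdk4 (row Tspan31) held 36 and 52 against 31 and 18, -0.68 ± 0.30. Targets of p53 gave 4 rows with a median of -0.08, among them the growth arrest gene Gadd45a (row E230016M11Rik) with 198 and 324 counts against 171 and 168, -0.42 ± 0.16. Genes of the integrated stress response gave 2 rows, with a median of 0.04. Cholesterol synthesis gave 6 rows with a median of 0.04 and sphingolipid metabolism 5 with a median of 0.16, of which Smpd3 was the only call. Enzymes of nucleotide hydrolysis at membranes gave 3 rows with a median of 0.10. One of them is Gm27177, called at 3.23 ± 0.33, and Entpd6 (row Gm26681) held 39 and 46 counts against 32 and 13, -0.78 ± 0.33.

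**Figure D4:**
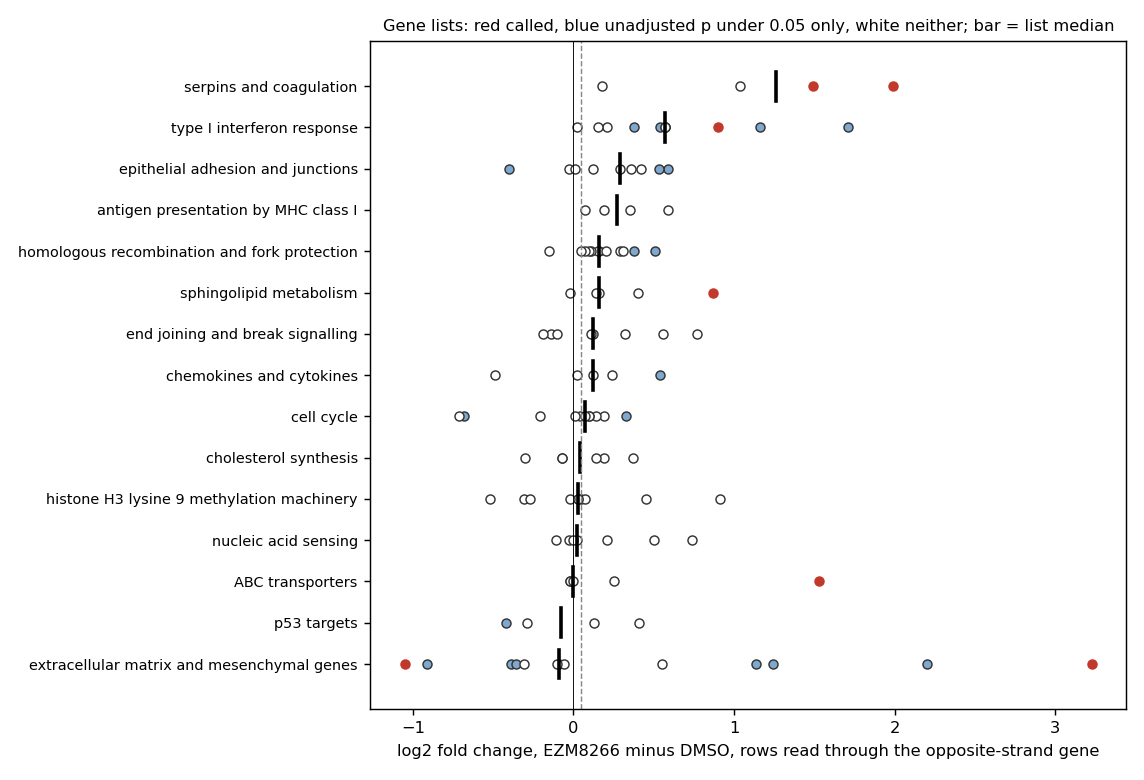
Log2 fold change, EZM8266 minus DMSO, of each row opposite a member of the 15 lists with at least 4 such rows, 1 point a row, with the list median as a black bar and the median of all rows with an opposite exon, 0.050, as a dashed line. Red points are called, and blue points have only an unadjusted p under 0.05. The interferon points all lie above 0, whereas the matrix points spread to both sides.

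Log2 fold changes differed with the annotation opposite a row. Rows with an opposite exon, 3554 of the 6379, had a median log2 fold change of 0.050, with 169 higher and 63 lower at an unadjusted p under 0.05, and hold 11 of the 13 calls. The 1037 rows with nothing annotated opposite had a median of -0.263, with 20 higher and 53 lower, and rows inside an opposite gene (987) or within 5000 bases downstream of one (801) had medians of -0.080 and -0.208. In the combination against olaparib the medians were 0.003, -0.038, -0.018 and -0.040 in the same order. The share of fragments on the wrong strand was lowest in EZM8266 replicate 2, 1.04%, and highest in DMSO replicate 2, 1.68%. Its part in these medians was not tested. With that share as a covariate 46 rows were called, 30 higher and 16 lower, the 13 among them.

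Both the number of calls and their split by direction depended on the fit. The 12 higher and 1 lower became 27 and 15 with no filter and 30 and 16 with the leakage covariate. Fitting only the 4 libraries compared called 3 rows, as did leaving out DMSO replicate 1 and olaparib replicate 2, the libraries rich in satellite counts. Leaving out DMSO replicate 1 alone gave 6, DMSO replicate 2 gave 5, olaparib replicate 1 gave 8, EZM8266 replicate 2 gave 7, and EZM8266 replicate 1 gave 24. Serpinb9b, F13a1 and Gm27177 were called in each of these and in every other setting, and no value of the 13 rows changed sign in any setting.

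**Figure D5:**
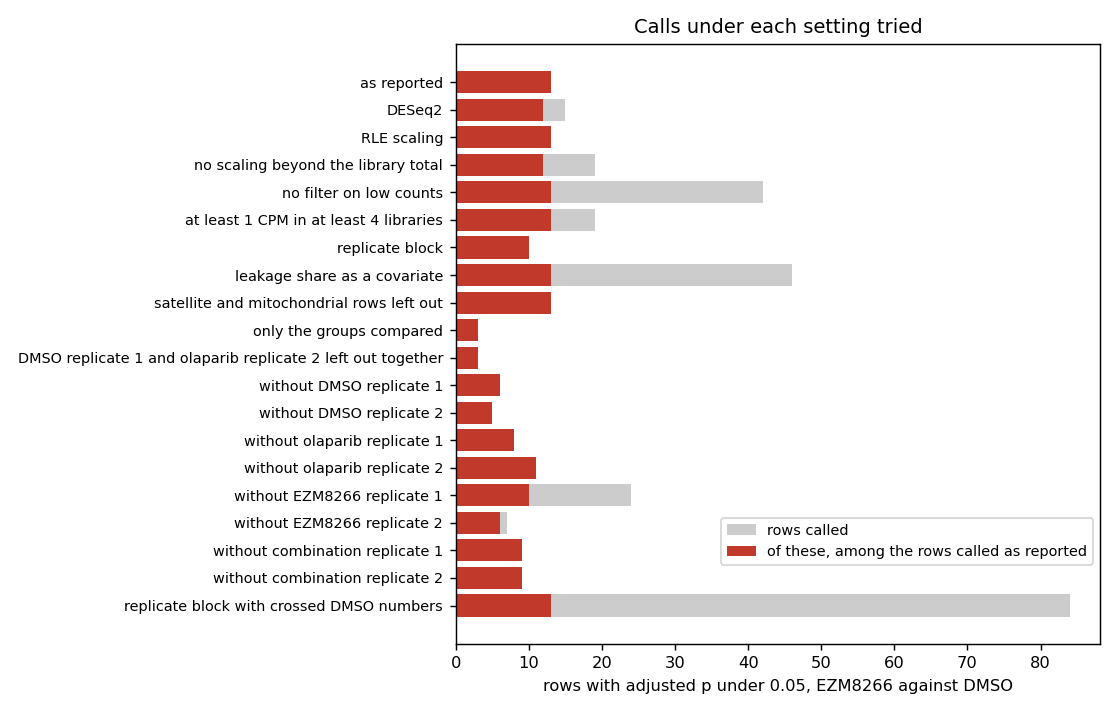
Number of rows called for EZM8266 against DMSO under each setting (grey bars), with the part that belongs to the 13 rows reported in red. The count runs from 3 to 84, and the red part from 3 to 13.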

How the data were processed

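Ribosome-depleted RNA of 8 libraries, 4 groups of 2, was sequenced as read pairs, and the groups were taken from the sample titles. Per the file headers, the deposited counts are whole numbers of fragments per gene over GENCODE M18 exons, not normalized, counted by featureCounts with strand setting 1 and with a fragment counted for every gene it overlapped. Alignment and counting tools named in the submitters' processing notes are HISAT2 2.1.0 and Subread 1.6.2, with the build mm10. The other deposited counts, fragments per assignment status and library, gave the depth. Symbols came from GENCODE M21, which named 54079 rows and left 67 unnamed, as did coding and untranslated bases, while opposite-strand exons were found from the exon coordinates in the deposited count table.

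All 8 libraries entered 1 fit of 4 group means with edgeR 4.0.16 (quasi-likelihood test, TMM scaling, filterByExpr at 10 counts, 15 in total) in R 4.3.3. CPM are TMM-scaled, with the SD of 2 libraries. Other settings were DESeq2 1.42.0, other scalings and filters, a replicate block, a leakage covariate, fewer libraries and fewer rows. The fit was tested on simulated counts. Intervals and floors cover counting error only.

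Named rows were all 13 calls, the next rows by p up to 30 with at least 5 CPM, no overlap of groups and a gene symbol, up to 4 rows per list, and the drug target genes. The 23 lists, the naming rule and the reading through the opposite strand were chosen with earlier results of these data known. Where the text names a list member beyond the first 4 by p, it was chosen after its values were seen. Values of 1 gene that the naming rule would have named are not reported here.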

Additional observations from a re-analysis of the deposited data

How the results depend on the processing

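Depth limits the comparison, with a median standard error of 0.39 over all rows and 0.15 at a mean of at least 100 counts. For EZM8266 against DMSO the count of 13 became 15 with DESeq2, 19 with no scaling or at 1 CPM, 10 with the replicate block, 42 with no filter (27 higher, 15 lower), 46 with the leakage covariate (30 higher, 16 lower), and 3, all higher and 0 lower, with only the groups compared or without DMSO replicate 1 and olaparib replicate 2. Called lower were 2 rows with DESeq2, no scaling and 1 CPM. Without 1 library in turn 5 to 24 rows were called, 4 to 14 higher and 1 to 10 lower, with the lone sample of an arm assumed to vary like the other groups. For the combination against olaparib the count of 6 became 42 with no filter, 40 with the leakage covariate, 11 with only the groups compared and 4 to 13 without 1 library. For the interaction the count of 0 became 1 with DESeq2, no scaling, 1 CPM and the leakage covariate, 7 with no filter, and 0 to 1 without 1 library. The cause was not tested, except that fewer libraries or another set of rows is what these settings consist of. Deviations of same-numbered libraries correlated at -0.31, -0.32 and -0.15 between DMSO and olaparib, EZM8266 and the combination, and at 0.29, 0.22 and 0.29 among the latter 3 groups, so the numbers were not used as a pairing of all 4 groups, and whether those of DMSO are exchanged is not given in the labels. A replicate block with crossed DMSO numbers, added after seeing the data, called 84 (53 higher, 31 lower), 47 and 3 rows.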

Other observations

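Rows that went from near silence to a measurable level were looked for outside the tests. With a mean under 5 CPM with DMSO and at least 10 CPM with EZM8266, 25 rows were found, and in 24 the libraries of the groups did not overlap, which the choice by group means nearly fixes (31.8% of all rows did not overlap). The reverse, under 5 CPM with EZM8266 and at least 10 CPM with DMSO, held for 42 rows, 38 of them without overlap. Such rows pass the low-count filter largely through the groups where they are higher, and both sets follow from cuts on group means. The 2 counts therefore cannot compare rows gained with rows lost. Of the 25 rows, 12 have no opposite exon, and this was not counted for the 42. The 25 include the rows Cts8-ps and Gm49398, which overlap each other on chromosome 13 and so share fragments, and the row of Bdnf, a neurotrophin gene. The row of Insc, a regulator of spindle orientation, is among them with 2 and 3 counts with DMSO. None of these 4 was called.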
